A study of Mus musculus with 2 samples.

Results

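Matrix metalloproteinases (MMPs), the ADAM and ADAMTS proteases and the tissue inhibitors of metalloproteinases (TIMPs) were examined in 3D cultures of mouse mammary cells. The cultures were grown from sorted basal cells with and without M2-like macrophages. In the paper, flow cytometry of such cultures found mainly luminal cells in both groups. The genes were chosen by name alone, as every row of the count table whose symbol starts with Mmp, Timp or Adam and a digit, or with Adamts, and is not marked as a pseudogene. This gave 84 of 49492 genes, of which 23 were MMPs, 4 TIMPs, 33 ADAMs and 24 ADAMTS genes, the last with 5 ADAMTS-like genes. The ctrl group was 1 library of primary wild-type mammary epithelial cells without treatment, and the M2 group was 1 library of the same kind of cells that had shared wells with M2-like macrophages for 11 to 14 days. Basal cells of both groups were sorted from adult female mice and embedded in a matrix gel under medium with EGF. The macrophages had been grown from bone marrow, polarised with IL-4 and IL-13 and placed in a porous insert, as the methods state, so that they were not part of the gel. Whether animals were pooled is not given in the sources used here. The culture time of the ctrl library is not given either, and the methods state a range for colonies that starts earlier. A difference in culture time could therefore not be told apart from the co-culture.

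The enzymes of these families share a zinc-dependent catalytic domain and most are made as inactive precursors. Secreted and membrane-bound MMPs cut collagens, laminins and other matrix proteins, and in the mammary gland they are known for their part in branching and involution. ADAMs are membrane proteins, several of which release growth factors, cytokines and receptors from the cell surface. ADAMTS enzymes are secreted and process proteoglycans and procollagens, ADAMTS-like proteins lack the protease domain, and TIMPs bind and block the active enzymes.

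The ctrl library held 26912610 reads in genes and the M2 library 29413844 reads. There is 1 library per group and hence no replicate check, so every test given here compares those libraries and not the conditions. Levels are CPM, the reads of a gene relative to a library size scaled by the trimmed mean of M values (TMM). Where genes are compared with each other, levels are TPM. These are reads divided by gene length and rescaled to the same total in each library, without TMM. Calls needed an adjusted p under 0.05, from a two-sided exact binomial test of the reads, together with a difference of at least 2-fold. Intervals are 95% intervals that cover counting error only. The basal keratins Krt5 (56383 reads in ctrl and 83619 in M2) and Krt14 (81991 and 68968 reads) were abundant in both libraries. Of 7 basal markers, 0 were called higher and 1 lower, the oxytocin receptor Oxtr (8324 and 1920 reads, log2 fold difference -2.18). Of 7 luminal markers, 0 were called higher and 3 lower, namely Elf5 (5704 and 2776 reads), Esr1 (1028 and 281 reads) and Pgr (3195 and 575 reads). The luminal keratins Krt8 (29888 and 36348 reads, 0.21) and Krt18 (14001 and 14225 reads, -0.05) were abundant too and not called. Krt19 (14538 and 8899 reads, -0.78) and Gata3 (2971 and 2896 reads, -0.11) were not called either. The luminal list had a median of -0.78 and 71325 and 66000 reads in sum. Of all genes tested, 8.16% were called higher and 6.55% lower. The part of luminal cells in the results was not tested. Of 12 macrophage markers, Ptprc, Adgre1, Tyrobp and Fcer1g had 0 reads in both libraries and Cd163 and Aif1 were called higher in M2, with the values given beside Mmp12. In such bulk libraries fewer cells of a type and less RNA per cell cannot be told apart.

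Of the 84 genes, 58 had at least 10 reads over both libraries and were tested, 17 had 0 reads in both and 9 had 1 to 9 reads. Among the 58, 19 were called higher in M2, and the same rule called 8.16% of all 19233 genes tested. Another 6 were called lower, where the rule called 6.55% of all genes, and 33 were not called. The median log2 fold difference of the 58 genes was 0.44, and that of all genes tested was -0.0032. A gene near 0 in ctrl can pass the read filter only through M2, so the 40 genes with at least 1 CPM in both libraries were also counted alone. Of these, 13 were called higher, where 5.46% of 14590 such genes were called, and 4 lower, where 4% were. At a threshold of 4-fold, 10 of the 58 were higher, against 3.2% of all genes, and 2 lower, against 2.57%.

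**Figure D1:**
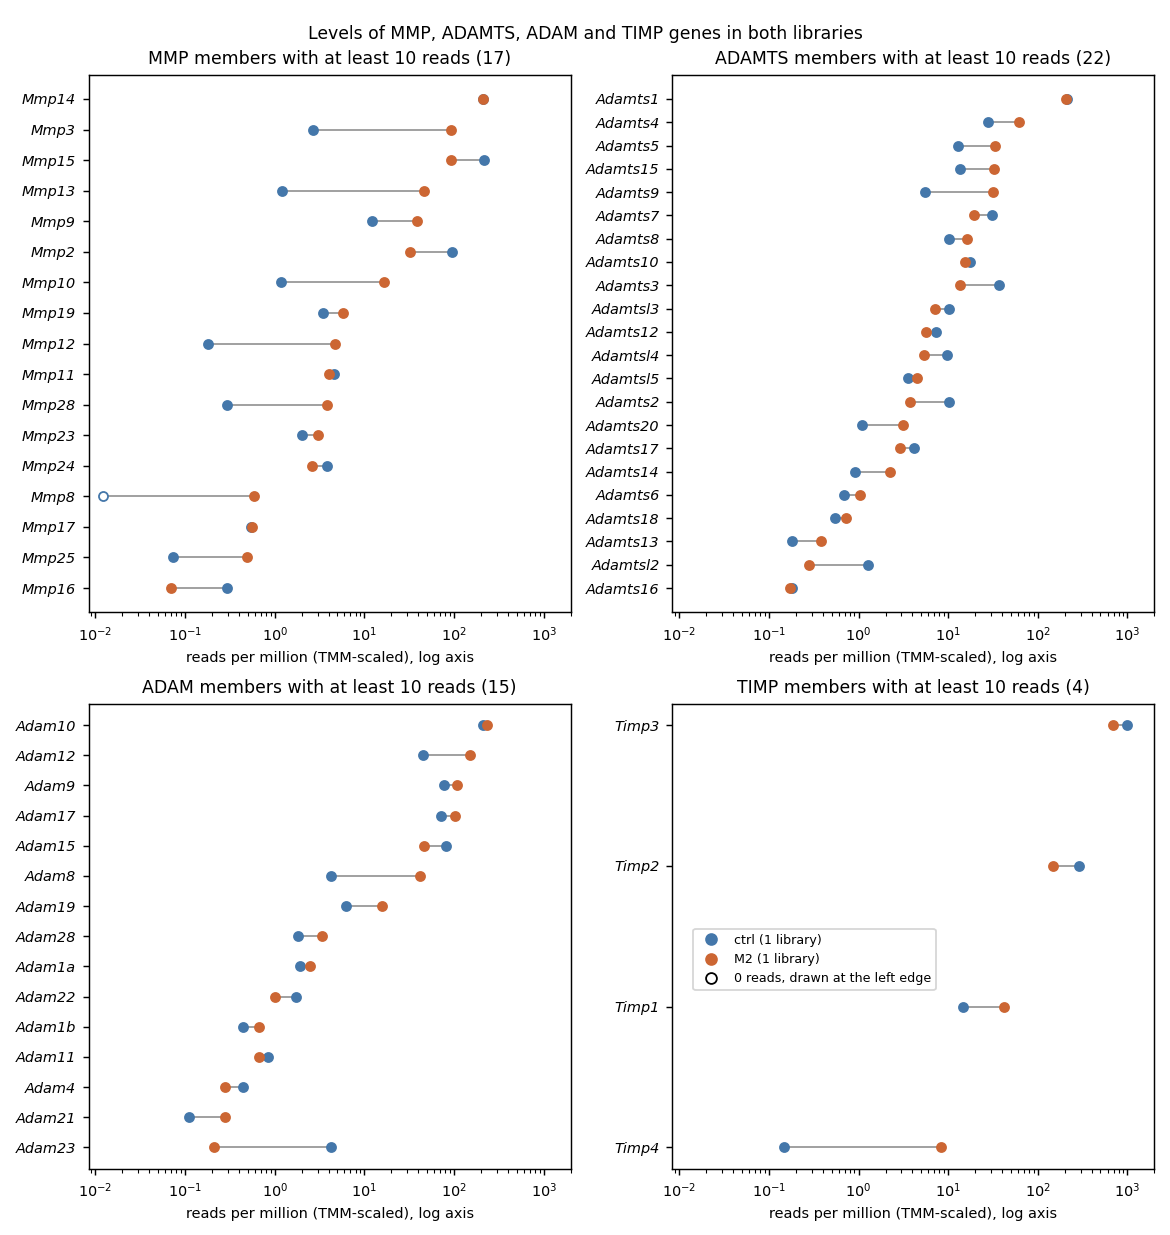
Level of each gene with at least 10 reads in ctrl (blue) and M2 (orange), 1 library each, in TMM-scaled CPM on a log axis, in 4 panels by family. The longest lines with M2 on the right are those of Timp4 and of Mmp3, Mmp13, Mmp12, Mmp28, Mmp10 and Mmp8, whereas Adam23 has ctrl on the right, and the levels of Mmp14, Adamts1 and Adam10 nearly coincide.

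The highest rises among the MMPs were found in a gene cluster of chromosome 9. Here 10 Mmp genes lie between 7272514 and 7699585 (GRCm38), over 427.1 kb, in the order Mmp13, Mmp12, Mmp1b, Mmp3, Mmp1a, Mmp10, Mmp8, Mmp27, Mmp20 and Mmp7. All but Mmp1b are on the plus strand. Together they held 143 reads in ctrl and 4648 in M2. Proximal promoters of this cluster are printed here because 5 of its 10 genes were called higher, against 8.16% of all genes tested. They are the 100 bases before the RefSeq start (GRCm38.p6, plus strand, 5′ to 3′). Capitals mark matches to TGANTCA, the letters of AP-1 sites with any base in the middle. AP-1 sites bind Fos and Jun proteins. The genes called higher with a match are Mmp13 (chr9:7272414-7272513), Mmp12 (chr9:7347274-7347373, at the start site that had the match out of 2), Mmp3 (chr9:7445722-7445821) and Mmp10 (chr9:7502242-7502341). Mmp8 (chr9:7558329-7558428) was called higher and has no match, and Mmp20 (chr9:7628131-7628230) has a match and had 0 reads in both libraries.
Mmp13: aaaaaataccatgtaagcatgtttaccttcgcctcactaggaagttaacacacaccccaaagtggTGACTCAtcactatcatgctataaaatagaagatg
Mmp12: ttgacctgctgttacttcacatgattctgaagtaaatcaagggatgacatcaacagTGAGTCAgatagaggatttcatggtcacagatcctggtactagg
Mmp3: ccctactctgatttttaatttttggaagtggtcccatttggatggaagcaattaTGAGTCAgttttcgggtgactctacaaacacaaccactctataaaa
Mmp10: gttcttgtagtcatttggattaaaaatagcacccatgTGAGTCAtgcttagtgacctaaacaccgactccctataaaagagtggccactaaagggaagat
Mmp8: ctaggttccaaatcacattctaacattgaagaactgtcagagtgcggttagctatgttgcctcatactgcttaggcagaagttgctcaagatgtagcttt
Mmp20: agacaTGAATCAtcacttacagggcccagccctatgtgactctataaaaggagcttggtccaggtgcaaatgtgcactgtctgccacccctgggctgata

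Promoter windows of 300 bases, from 250 bases before to 50 after the start, were found for 53 of the 84 genes. A match to TGANTCA, which reads the same on both strands, was present in windows of 8 of the 10 cluster genes. The matches began 35 bases before the start of Mmp13, 44 before that of Mmp12, 46 before that of Mmp3 and 63 before those of Mmp10 and Mmp7. Those of Mmp1a, Mmp1b and Mmp20 began 73, 93 and 95 bases before the start. Of all 32851 promoter windows, 7.81% held the motif. It was found in 8 of 12 windows of the cluster, in 5 of 46 windows of the other genes, and in 1 of 11 windows of genes called higher outside the cluster, that of Adam19. An NF-κB motif, spelled GGG, any 2 bases and TTTCC and searched on both strands, was in 1.63% of all windows and in 0 of the 58 windows of these genes. Matches to TGANTCA were found in genes with and in genes without reads. That of Mmp20 had A as its middle base, whereas the other printed matches had C or G there. A role of AP-1 in these genes was not tested. Both motifs were chosen after the values were seen.

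Mmp3 (chromosome 9, 7445822 to 7455975), stromelysin 1, cuts many matrix proteins and can activate other MMPs. It had 73 ctrl reads and 2674 M2 reads, or 2.66 and 92.8 CPM, giving a log2 fold difference of 5.11 (95% interval 4.79 to 5.48). Mmp13 (7272514 to 7283331), the main interstitial collagenase of mice, had 33 and 1335 reads, a difference of 5.23 (4.77 to 5.81). Both genes were thus scarce in ctrl and well covered in M2. Mmp10 (7502352 to 7510240), stromelysin 2, had 32 and 483 reads and differed by 3.81 (3.33 to 4.41; adjusted p = 1.42e-98, exact binomial test).

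Mmp12 (7344381 to 7369499), known as the macrophage elastase, had 5 and 134 reads, giving a log2 fold difference of 4.42 (3.42 to 6.32). It shares 157 bases of exon with Mmp1b on the other strand, and Mmp1b had 0 and 1 reads. Because Mmp12 is also a macrophage gene, the macrophage markers were read beside it. Of the 12 markers, 5 had enough reads to be tested and 2 were called higher, against 8.16% of all genes. These were Cd163 (2 and 30 reads) and Aif1 (3 and 40 reads). The summed list held 281 and 344 reads, while 170 and 165 reads fell on Cd68 and 94 and 92 on Csf1r, with no call for either. Itgam (3 and 9 reads) was not called. Lyz2 (3 and 1 reads), Ctss (5 and 2) and Mrc1 (1 and 5) had too few reads to be tested. The part of macrophage RNA in the Mmp12 value was not tested. Mmp8 (7558456 to 7568485), the neutrophil collagenase, had 0 and 17 reads. It was 5.40-fold higher in M2 when the 0 is read as the limit of 3 reads and the 17 as exact. The counting interval of its log2 fold difference had a lower bound of 1.98, which is a smaller difference than that. The neutrophil genes Ly6g, Elane, Mpo and Csf3r had 0 reads in both libraries. The others listed, S100a8 (1 and 44 reads), S100a9 (1 and 47 reads), Camp (3 and 14 reads) and Ltf (271 and 2133 reads), were called higher, against 8.16% of all genes. The part of neutrophil RNA in the Mmp8 value was not tested.

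The remaining cluster genes were silent or nearly so. Mmp7, matrilysin, had 0 and 4 reads and shares 11.5% of its exon length with another gene. Mmp1b had 0 and 1, and Mmp1a, Mmp20 and Mmp27 had 0 in both. A count of 0 was read as up to 3 reads, or 0.109 CPM in ctrl and 0.104 CPM in M2. The nearest tested genes on either side were not called. Dcun1d5 on one side had 1240 and 1788 reads. On the other, Gm10709 had 140 and 209 and Tmem123 had 4026 and 3881. These genes were chosen after their values were seen. Within 1 Mb of the cluster, 14 other genes were tested. Of these, 2 were called higher and 3 lower, where the rule called 8.16% and 6.55% of all genes. Those called higher were Pdgfd (35 and 134 reads) and Birc3 (282 and 992 reads). Those called lower were Gm45494 (31 and 9 reads), Trpc6 (10 and 2) and RP24-250L13.2 (74 and 6).

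**Figure D2:**
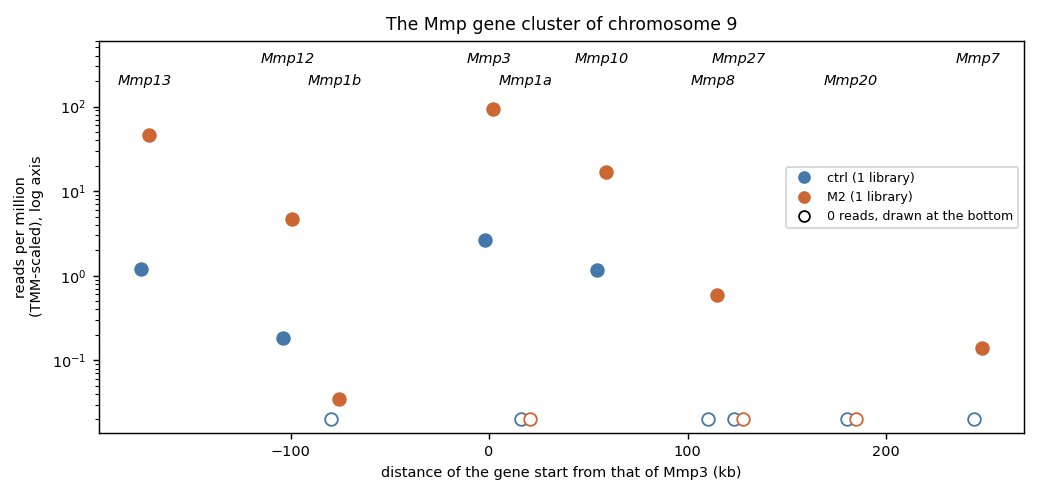
Level of the 10 Mmp genes of the chromosome 9 cluster in ctrl (blue) and M2 (orange), 1 library each, in TMM-scaled CPM on a log axis, against the distance of each gene's start from that of Mmp3 in kb. Open circles stand for 0 reads, and Mmp3, Mmp13, Mmp10, Mmp12 and Mmp8 have M2 far above ctrl while Mmp1a, Mmp20 and Mmp27 have no reads.

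Outside the cluster the MMPs went both ways. The gelatinases, which cut denatured collagen and type IV collagen of basement membranes, were split. Mmp9 (chromosome 2, 164940780 to 164955850) had 330 ctrl reads and 1104 M2 reads, giving a log2 fold difference of 1.67 (1.49 to 1.85), and Mmp2 (chromosome 8, 92827291 to 92853420) had 2623 and 935, differing by -1.56 (-1.67 to -1.45). Per length, Mmp2 was the higher of both in ctrl, at 73.7 TPM against 8.83 for Mmp9, and in M2 they stood at 24.3 and 27.3 TPM. Mmp2 is made mainly by stromal cells in the gland. Of 9 fibroblast markers, 8 were tested, 3 were called lower (Col1a2, Col3a1 and Pdgfrb) and 1 higher (Dcn). The rule called 6.55% of all genes lower and 8.16% higher. The summed reads of the list were 9318 and 4126. Most of these fell on Col1a1 (2057 and 1097 reads), Col1a2 (4463 and 1457) and Col3a1 (1612 and 276). Col1a1, Pdgfra (607 and 822 reads), Thy1 (257 and 253) and Lum (10 and 3) were not called. The part of fibroblast RNA in the Mmp2 value was not tested.

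Mmp28, epilysin, an MMP of epithelial cells, had 8 and 109 reads and was called higher with a difference of 3.54 (2.67 to 4.95). It shares 12% of its exon length with 1700020L24Rik on the other strand, which had 6 and 39 reads and was called higher. Mmp11 (126 and 115 reads, difference -0.20), Mmp19 (94 and 168 reads, 0.76) and Mmp23 (56 and 88 reads, 0.57) were not called, and Mmp21 had 0 reads in both libraries. Mmp19 shares 23.1% of its exon length with Tmem198b, so its value is uncertain.

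The membrane-type MMPs, which act at the cell surface, showed no general rise. Mmp14, which activates Mmp2 and cuts collagen around cells, had 5733 and 6033 reads, or 208.7 and 209.3 CPM, giving a log2 fold difference of 0.0044 (-0.05 to 0.06). Its sign turned to -0.055 with library totals in place of TMM. Mmp15 (chromosome 8, 95352268 to 95375080) had 5921 and 2664 reads and was called lower by -1.22 (-1.29 to -1.16). Mmp25, a GPI-anchored MMP, had only 2 and 14 reads, and its difference of 2.25 (0.62 to 5.92; adjusted p = 0.00963, exact binomial test) was called, a call that was lost once variation between cultures was allowed for (a coefficient of 0.2, as described at the end). Mmp24 (106 and 76 reads), which shares 13.6% of its exon length with another gene, Mmp17 (15 and 16 reads) and Mmp16 (8 and 2 reads) were not called.

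The make-up of the MMPs therefore differed more than their total. The 17 genes that are not membrane-type had a summed level of 99.0 TPM in ctrl (95.7 to 102.4) and 266.4 TPM in M2 (259.9 to 272.8). Mmp2 made up 74.4% of this sum in ctrl and 9.11% in M2. Mmp3 made up 3.87% and 48.8%, and Mmp13 made up 1.18% and 16.4%. The membrane-type genes summed to 232.6 TPM in ctrl (228.4 to 236.9) and 168.0 TPM in M2 (164.5 to 171.5). In both libraries Mmp14 held the largest share of them, 54.3% and 73.1%.

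**Figure D3:**
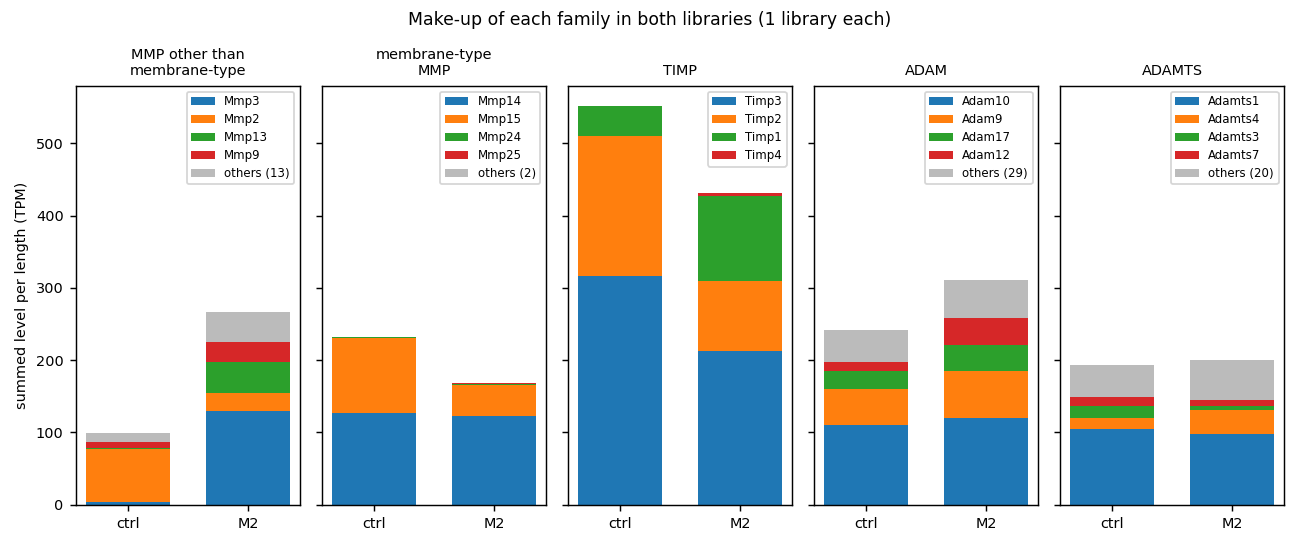
Summed level per length (TPM) of 5 groups of genes in ctrl and M2, 1 library each, with the 4 highest genes of each group in colour and the others in grey. MMPs other than membrane-type are mostly Mmp2 in ctrl and mostly Mmp3 and Mmp13 in M2, and among the TIMPs the part of Timp1 is larger in M2 while those of Timp2 and Timp3 are smaller.

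Timp3 and Timp2 had the highest levels per length of all 84 genes in ctrl, and the 4 inhibitors did not move as a group. Timp3, which is bound to the matrix and also blocks ADAM17, had 27205 ctrl reads and 19787 M2 reads, giving a log2 fold difference of -0.53 (-0.56 to -0.50), and was not called. Timp2, which also takes part in the activation of Mmp2 by Mmp14, had 7956 and 4293 reads and a difference of -0.96 (-1.01 to -0.91), just inside the 2-fold threshold. With library totals in place of TMM it was -1.02 and called lower. Timp1 (chromosome X, 20870166 to 20874735), an inhibitor that is induced by cytokines, had 398 and 1201 reads and was called higher by 1.52 (1.36 to 1.69; adjusted p = 4.34e-84, exact binomial test). Timp4 (chromosome 6, 115241892 to 115252205) had 4 and 238 reads, differing by 5.51 (4.45 to 7.71).

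Each of Timp1, Timp3 and Timp4 lies inside a synapsin gene on the other strand, and the use of strand in counting is not stated, so their reads cannot be told apart with certainty. Syn2, the host of Timp4, had 49 ctrl reads and 1829 M2 reads, giving a log2 fold difference of 5.12 (4.74 to 5.59), close to that of Timp4, and both genes share 90 bases of exon. Syn3, the host of Timp3, shares 1733 bases of exon with it, 21.3% of the exon length of Timp3. It had 10268 and 7431 reads, 0.377 of the reads of Timp3 in ctrl and 0.376 in M2. Syn1, the host of Timp1, shares no exon with it and had 19 and 40 reads. The values of Timp3 and Timp4 are uncertain for this reason, and that of Timp1 rests on more reads than its host has. Timp2 is not inside another gene.

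Summed over the family, TIMPs stood at 552.1 TPM in ctrl (545.1 to 559.2) and 430.9 TPM in M2 (423.1 to 438.8). Timp3 held 57.3% and 49.3% of this sum, Timp2 35.0% and 22.4%, and Timp1 7.69% and 27.5%. The ratio of summed TIMP to summed MMP levels other than membrane-type was 5.57 in ctrl and 1.62 in M2. With the membrane-type genes added it was 1.66 and 0.992. These are ratios of RNA levels in 1 library each, and they say nothing of protein or of activity.

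Among the ADAMs, the 9 proteases listed as releasing surface proteins held 13679 of 13964 ADAM reads in ctrl and 20213 of 20384 in M2. Of the 8 tested, 3 were called higher and 0 lower, against 8.16% and 6.55% of all genes. Adam8 (chromosome 7, 139978932 to 139992562), a protease known from leukocytes and inflamed epithelium, had 116 ctrl reads and 1196 M2 reads, giving a log2 fold difference of 3.29 (3.02 to 3.58). Adam12 (chromosome 7, 133883199 to 134232146), which is linked to growth factor release in tissue remodelling, had 1242 and 4363 reads, a difference of 1.74 (1.65 to 1.84). Adam19, which cuts neuregulin, had 173 and 452 reads, a difference of 1.31 (1.06 to 1.58). Adam19 shares 15.0% of its exon length with 2 genes of the other strand, Gm16033 (20 and 49 reads) and Gm16034 (11 and 24 reads).

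The sheddases with the most reads in ctrl were not called. Adam10, which cuts Notch receptors and cadherins, had 5742 and 6701 reads and a difference of 0.15 (0.10 to 0.20). Adam17, the enzyme that releases TNF-α and several EGF receptor ligands, had 1978 and 2956 reads and a difference of 0.51 (0.43 to 0.59). Adam9 had 2125 and 3112 reads and a difference of 0.48 (0.40 to 0.56). Adam15 had 2251 and 1333 reads and a difference of -0.82 (-0.92 to -0.73), and shares 20.6% of its exon length with 4731419I09Rik. For these 4 genes the interval left out 0 but the call failed on size. Per length, Adam10 was the highest ADAM in both libraries, at 110.7 and 119.4 TPM. Adam12 and Adam17 stood at 11.1 and 26.2 TPM in ctrl and at 36.1 and 36.2 TPM in M2.

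Adam23, an ADAM without protease activity that binds integrins and is best known in neurons, went the other way, with 117 reads in ctrl and 6 in M2, giving a log2 fold difference of -4.14 (-5.83 to -3.19; adjusted p = 3.95e-28, exact binomial test). The related Adam22 (48 and 29 reads, difference -0.78) and Adam11 (23 and 19 reads, -0.33) were not called. Adam28 (50 and 97 reads, 0.87) was not called, and Adam33 had 2 and 3 reads. The other 21 ADAMs, many of which are known from testis and sperm, had 97 ctrl reads and 117 M2 reads in all. Of these genes 12 had 0 reads in both libraries and none was called. Adam7, at 8 and 0 reads, was under the filter and not tested. It was 2.80-fold lower in M2 when the 0 is read as 3 reads and the 8 as exact. The counting interval of its log2 fold difference had an upper bound of -0.84, which is a smaller difference than that.

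**Figure D4:**
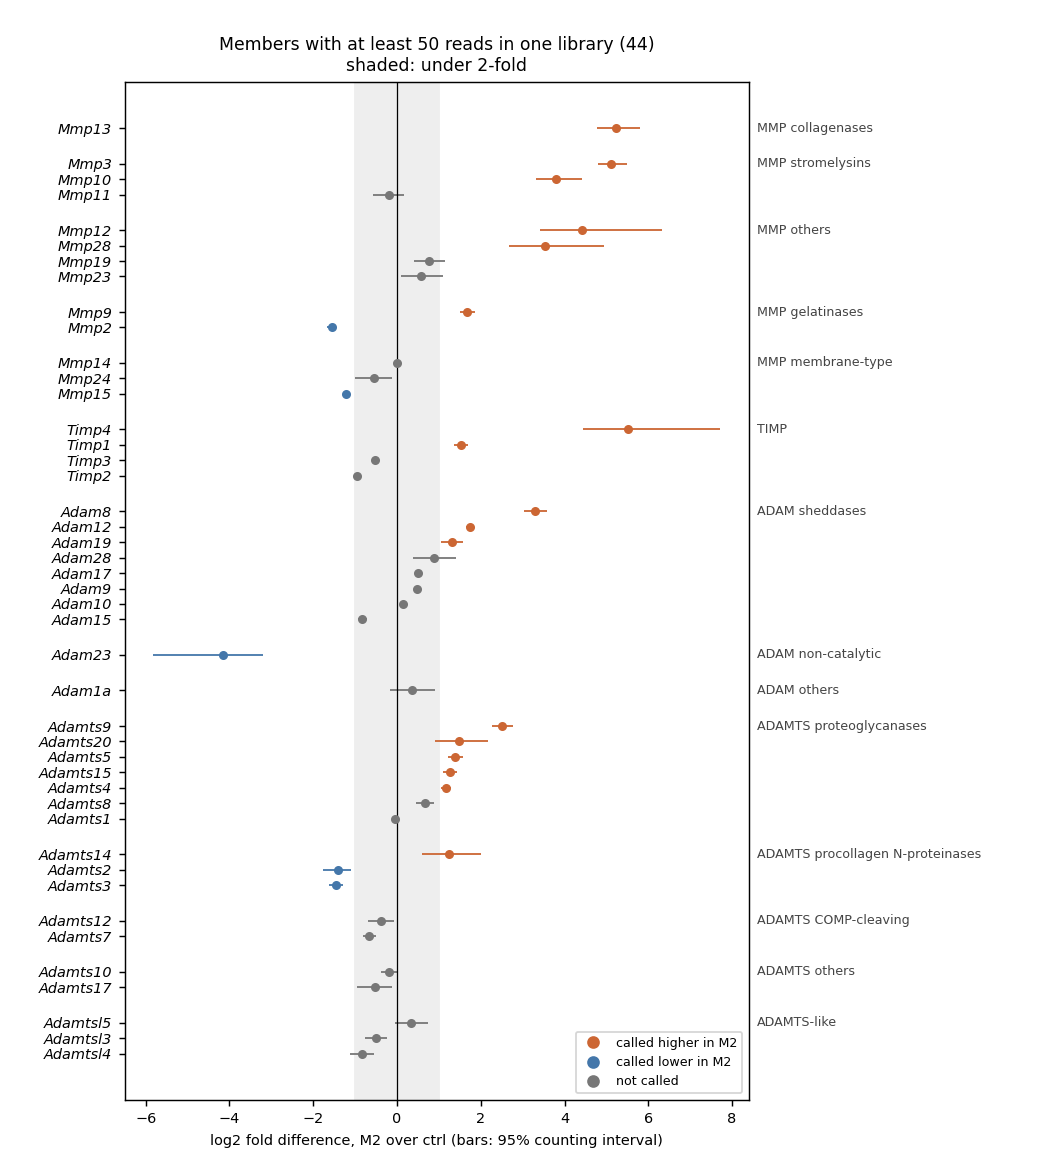
Log2 fold difference, M2 over ctrl, of the 44 genes with at least 50 reads in either library, with 95% counting intervals and in groups by subfamily. Orange genes were called higher, blue genes lower and grey genes were not called, and the shaded band is under 2-fold. The stromelysins and collagenase lie far to the right apart from Mmp11, and 5 of 7 ADAMTS proteoglycanases lie right of the band.

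Of the 7 ADAMTS proteoglycanases, which cut versican and aggrecan, all were tested. Of these, 5 were called higher and 0 lower, against 8.16% and 6.55% of all genes. The median log2 fold difference of the 7 was 1.26. All 7 had at least 1 CPM in both libraries. Adamts9 (chromosome 6, 92772699 to 92943492) had 151 ctrl reads and 908 M2 reads, a difference of 2.51 (2.27 to 2.78). It shares 12% of its exon length with A730049H05Rik (8 and 42 reads) and Gm15737 (12 and 62 reads), both on the other strand and both called higher. Adamts5, a main aggrecanase, had 350 and 963 reads (difference 1.39, 1.21 to 1.57), and Adamts15 had 374 and 942 (1.26, 1.09 to 1.44).

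Adamts4 had 757 and 1795 reads (1.18, 1.05 to 1.30), and Adamts20 had 30 and 90 (1.48, 0.91 to 2.16). Adamts8 had 282 and 472 reads, a difference of 0.67 that was not called, and shares 10.6% of its exon length with another gene. Adamts1, the most abundant of the family, had 5850 and 5950 reads and a difference of -0.04 (-0.10 to 0.0076). It is the gene next to Adamts5 on chromosome 16. Summed, the 24 ADAMTS genes stood at 192.8 TPM in ctrl and 199.7 TPM in M2, and Adamts1 made up 54.2% and 49.2% of these.

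The procollagen N-proteinases, which trim the amino-terminal ends of fibrillar procollagens, went both ways. Adamts2 had 279 ctrl reads and 109 M2 reads, giving a log2 fold difference of -1.42 (-1.76 to -1.10), and Adamts3 had 1017 and 387, a difference of -1.46 (-1.64 to -1.29). Adamts14, with 25 and 64 reads, was called higher by 1.25 (0.60 to 2.02; adjusted p = 0.000311, exact binomial test). Adamts3 held most of the reads of the 3 genes, 1321 in ctrl and 560 in M2.

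Of the other ADAMTS genes only the ADAMTS-like gene Adamtsl2 was called, since those with an adjusted p under 0.05, namely Adamts7, Adamts12, Adamts17, Adamtsl3 and Adamtsl4, differed by less than 2-fold. Adamts7 (837 and 556 reads, difference -0.66) and Adamts12 (203 and 164 reads, -0.38), which cut cartilage oligomeric matrix protein, were not called, and neither was Adamts13 (5 and 11 reads), which cuts von Willebrand factor. Adamts10 (478 and 439 reads), Adamts17 (115 and 83), Adamts6 (19 and 30), Adamts18 (15 and 21) and Adamts16 (5 and 5) were not called, and Adamts19 had 0 reads. Of the ADAMTS-like genes, Adamtsl2, which binds latent TGF-β binding protein, had 35 and 8 reads and was called lower by -2.07 (-3.52 to -1.06). Adamtsl3 (279 and 206 reads), Adamtsl4 (264 and 155 reads) and Adamtsl5 (98 and 130 reads) were not called, and Adamtsl1 had 4 and 0 reads.

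Genes that activate, anchor or transport these proteases were examined next. Of 12 genes for MMP activation and anchoring, 11 were tested. Where 8.16% of all genes were called higher and 6.55% lower, 7 were called higher and 0 lower, with a median of 1.23. They included Lcn2, listed here as an MMP partner (12343 and 76343 reads, difference 2.56), and Cd44, which docks MMPs at the cell surface (10330 and 37200 reads, 1.78). Bsg, an inducer of MMPs (9435 and 23034 reads, 1.22), and Plau, the urokinase that makes plasmin (2336 and 6147 reads, 1.33), were also among them. Furin, which cleaves MMP and ADAM precursors, had 3359 and 2676 reads, and Reck, a membrane-bound MMP inhibitor, had 194 and 128, and neither was called. Plg itself had 0 reads.

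Of 10 genes for the transport of ADAM10 and ADAM17, 9 were tested. Where 8.16% of all genes were called higher and 6.55% lower, 0 were called higher and 3 lower. The 3 called lower were tetraspanins that carry ADAM10. Tspan15 had 1483 and 184 reads, a difference of -3.07 (-3.31 to -2.86). Tspan5 (1229 and 612 reads, -1.07) and Tspan33 (148 and 74 reads, -1.06) lay just past 2-fold. The tetraspanins Tspan14 (1330 and 1466 reads, 0.07) and Tspan17 (211 and 242 reads, 0.13) were not called, and Tspan10 had 1 and 0 reads. Rhbdf1 (2676 and 2710 reads) and Rhbdf2 (980 and 1368 reads), the iRhom partners of ADAM17, were not called. Of 8 other metalloproteases of the same superfamily, 4 were tested and 1 was called higher, against 8.16% of all genes. This was Pappa, which cuts IGF-binding proteins (107 and 289 reads, 1.36). Bmp1, the procollagen C-proteinase, had 3319 and 4924 reads and was not called.

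Among 11 genes listed as ADAMTS substrates and cofactors, 9 were tested, 1 was called higher and 1 lower. This is 11.1% each, near the 8.16% and 6.55% of all genes. Comp had 40 and 121 reads, a difference of 1.5. Pcolce2 had 1981 and 14 reads, a difference of -7.12 (-8.09 to -6.46). Though on this list, Pcolce2 is an enhancer of procollagen C-proteinase, the enzyme of Bmp1, and not of an ADAMTS. The proteoglycan Vcan, with 1484 and 2687 reads, differed by 0.79 and was not called.

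The binomial test allows no variation between cultures. When a biological coefficient of variation (BCV) of 0.2 was assumed in the exactTest of edgeR, 16 of the 58 genes passed both thresholds as higher, where 5.01% of all genes did, and 6 as lower, where 3.59% did. The 3 that lost their call were Mmp25, Adamts4 and Adamts14. With 0.4, 7 remained higher against 0.91% of all genes, namely Mmp3, Mmp10, Mmp12, Mmp13, Mmp28, Timp4 and Adam8, and Adam23 alone remained lower, against 0.676%. None of the ADAMTS genes passed with 0.4.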

How the data were processed

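Total RNA of 1 ctrl and 1 M2 library was sequenced. The values that the authors deposited are counts of reads in each gene, not normalized. The labels name the builds GRCm38 and mm10, and the aligner, counter, strand setting and read filters are not given in the sources used here. Gene length is the union of the listed exons for 49490 of 49492 genes, over all isoforms, which lowers the TPM of genes with long minor isoforms such as Mmp12. Dates stood in place of 26 gene symbols.

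Genes with at least 10 reads in sum were scaled by TMM in edgeR 4.0.16 under R 4.3.3, and log2 fold differences were computed on reads plus a pseudocount of 1. P-values of the exact binomial test (scipy 1.17.1) were corrected after Benjamini and Hochberg (Benjamini-Hochberg) across the 19233 genes tested. Fold intervals come from Clopper-Pearson bounds, and those of summed TPM use the counting variance. No molecular identifiers are stated. A count of 0 was read as up to 3 reads. Start and end were those of GENCODE M21 for 74 of the 84 genes, the other 10 overlap their gene, and 83 are protein-coding there. Promoters were taken from RefSeq. The functions were tested on simulated data.

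The genes, lists and tests were chosen with earlier results of these data known. Named genes are all TIMPs, the chromosome 9 cluster, called genes with at least 50 reads and genes with at least 2000 reads in either library, and up to 4 called genes with the most reads of each partner list. All others were named after their values were seen. Size factors of DESeq2 1.42.0 were an alternative.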

Additional observations from a re-analysis of the deposited data

How the results depend on the processing

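Of the named genes, 31 were tested. All 31 had the same direction and the same call with DESeq2 size factors, upper quartile factors, pseudocounts of 0.5 and 5 and no read filter beyond 1 read, as did the 25 that had at least 1 CPM in both libraries. With library totals in place of TMM, Mmp14 turned to -0.055 and Timp2 was called lower. With an assumed BCV of 0.2 Adamts4 and Adamts14, and Mmp25 outside the named genes, were no longer called, and with 0.4 a total of 15 lost their call. No paired analysis was possible because ctrl and M2 share only a single replicate number.

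Counts of all genes called higher and lower were 797 and 583 with at least 1 CPM in both libraries, 616 and 494 at 4-fold, 964 and 691 with a BCV of 0.2, and 175 and 130 with 0.4. Of the 58 genes, 10 were called higher and 2 lower at 4-fold, and 7 and 1 with a BCV of 0.4. The construction of these settings, which test fewer genes or ask for more, lowers the counts. When 15 genes that lie inside another gene or share over 10% of their exon length were left out, a choice made after seeing the data, 14 were called higher and 6 lower among 45 tested. Of all genes, without such a filter, 8.16% were called higher and 6.55% lower. The share of all genes under this filter was not computed.

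The median log2 fold difference of ADAMTS genes turned to -0.12 with at least 1 CPM in both libraries and to -0.045 with no filter beyond 1 read, and that of TIMPs turned to -0.53 under the CPM filter, which removes Timp4, so neither median has a stable sign. The log2 ratio of summed reads with library totals was 0.42 for ADAMs, 0.11 for ADAMTS genes, -0.55 for membrane-type MMPs and -0.61 for TIMPs, and with TMM but without the gene with the most reads it was 0.67, 0.35, -1.20 and -0.61. For the other MMPs it was 1.02 with TMM, 0.956 with library totals and 2.97 with TMM but without Mmp2.

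For the partner lists the same alternatives were added after seeing the data. Called lower among the ADAM10 and ADAM17 transport genes was 1 with a BCV of 0.2 or 0.4 and at 4-fold. Among the genes listed as ADAMTS substrates and cofactors, 0 were called higher with a BCV of 0.4 or at 4-fold. Called lower were 0 with the CPM filter but 2 with library totals. Among MMP activation genes, 0 were higher with a BCV of 0.4 and 2 at 4-fold, and among the other metalloproteases 0 under both. Depth limits the genes under 10 reads, for which no difference was tested.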
